A study of Mus musculus with 6 samples.

Results

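The 38 genes described here encode the PI3K, AKT and mTOR signalling route of T cells together with its best-known brakes. They were taken as a list of symbols and cover catalytic and regulatory PI3K subunits, phosphatases, AKT and related kinases, FOXO and GSK3 substrates, the TSC and Rheb switch, both mTOR complexes, S6 kinases, sestrins and the LKB1 and AMPK kinases. All 38 were found among the 22624 genes of the deposited table, and the rule that lists them uses no measured value. The list itself was chosen with earlier results of these data known.

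RNA was sequenced from mouse T cells carrying 1 of 2 MigR1 retroviral vectors, with 3 libraries per vector. The empty vector expresses GFP only, and the other also carries a cDNA of Blimp-1, the transcriptional repressor encoded by Prdm1. Both groups began as naive CD4 cells (CD4+ CD44lo CD62L+ CD25neg) sorted from spleen and lymph node of wild-type C57/BL6 mice and activated on plate-bound antibodies to CD3 and CD28, with antibodies blocking IL-4 and IFN-gamma, a neutral condition called Th0. Vector was added after 36 hours, GFP-positive cells were sorted 2 days later, and another label gives the stimulation as 3 days. The labels call the 3 replicates independent but give no age, do not say whether animals were pooled and do not say what a shared replicate number marks. Blimp-1 was supplied by the vector, in cells that also hold their own Prdm1 gene, so its level depended in part on the vector. The Prdm1 values below do not separate transcripts of the vector from the cells' own.

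In T cells, PI3K is recruited by the antigen receptor and CD28 and makes the membrane lipid PIP3, which draws PDK1 and AKT to the membrane. AKT then phosphorylates FOXO factors, which leave the nucleus, and GSK3 and TSC2, which frees Rheb to switch on mTORC1 and its S6 kinases. Lipid phosphatases, sestrins, DDIT4 (REDD1) and the LKB1 and AMPK kinases hold the route back. Its activity is set by phosphorylation, which RNA levels do not measure.

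Values are FPKM, reads scaled to transcript length and library size, so levels can be compared between genes, and each is a share of the RNA pool rather than an amount per cell. In bulk samples, fewer cells of a type and less RNA per cell cannot be told apart. The depth, estimated from the value of 1 read, was 16.9 to 37.8 M reads in the empty vector libraries and 33.2 to 45.6 M in the Blimp-1 libraries. Prdm1 was at 0.996, 2.03 and 1.38 FPKM in empty vector replicates 1, 2 and 3 and at 9.91, 12.8 and 9.45 FPKM in Blimp-1 replicates 1, 2 and 3, which checks the labels. These means, 1.47 ± 0.525 and 10.7 ± 1.83 FPKM (SD, n = 3), differed 7.3-fold. Libraries with the same number deviated together from their vector's mean (r of 0.80, 0.81 and 0.70 across genes), and are called pairs below. Empty vector replicate 3 stood apart at 33.7 on the first principal component, against -22.7 to 12.7 for the other libraries, and was also the shallowest. The 6 T cell markers summed to 1760 to 2130 FPKM with empty vector and 1800 to 1990 with Blimp-1. The erythroid markers summed to 2.11 to 19.0 FPKM with empty vector and 0.621 to 3.1 with Blimp-1. Their most abundant gene, haemoglobin Hba-a1, was at 18.7 FPKM in empty vector replicate 3 and at 0.318 to 2.98 FPKM elsewhere. The 4 NK cell markers summed to 3.34 to 28.4 and 13.7 to 35.3 FPKM, mostly Klrd1, with Ncr1 listed at 0 in all 6 libraries. Klrd1 was higher with Blimp-1 in 3 of 3 pairs, and its vectors overlapped. Its log2 difference of 0.72 was -0.02 without empty vector replicate 3. The CD8 markers summed to 7.18 to 10.4 and 7.94 to 11.0 FPKM, nearly all Cd8b1. Cd8a was at 0.1 to 0.169 FPKM over the 6 libraries. The 6 myeloid markers summed to 131 to 158 and 124 to 156 FPKM, mostly Cst3 and Ly6c2. Their other genes were low, with means over the 6 libraries of 0.114 FPKM for Lyz2 and 0.00109 for Csf1r. Itgam and Cd68 had means of 0.981 and 1.56 FPKM. Ly6c2 was at 17.9 to 80.6 FPKM and exceeded Cst3 in both replicate 2 libraries. The 5 B cell markers summed to 1.63 to 4.79 and 1.48 to 5.84 FPKM. The part of other cells, depth or this library in the values below was not tested beyond the values given without it.

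The route was transcribed in these activated T cells almost in full. Of the 38 genes, 37 were at 1 FPKM or more in all 6 libraries and were tested, so none entered through 1 vector only. Deptor, an mTOR-binding inhibitor, was at 0.164, 0.148 and 0.052 FPKM with empty vector and 0.167, 0.263 and 0.114 FPKM with Blimp-1, and was not tested. The 37 genes had a median level of 16.5 FPKM over the 6 libraries, against 11.4 FPKM for the 10864 genes tested. The highest were Ddit4, a stress-induced brake on mTORC1, and Pik3cd, the leukocyte PI3K catalytic subunit, and the lowest tested was Pik3cb. The plot of levels by role shows these values library by library.

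**Figure D1:**
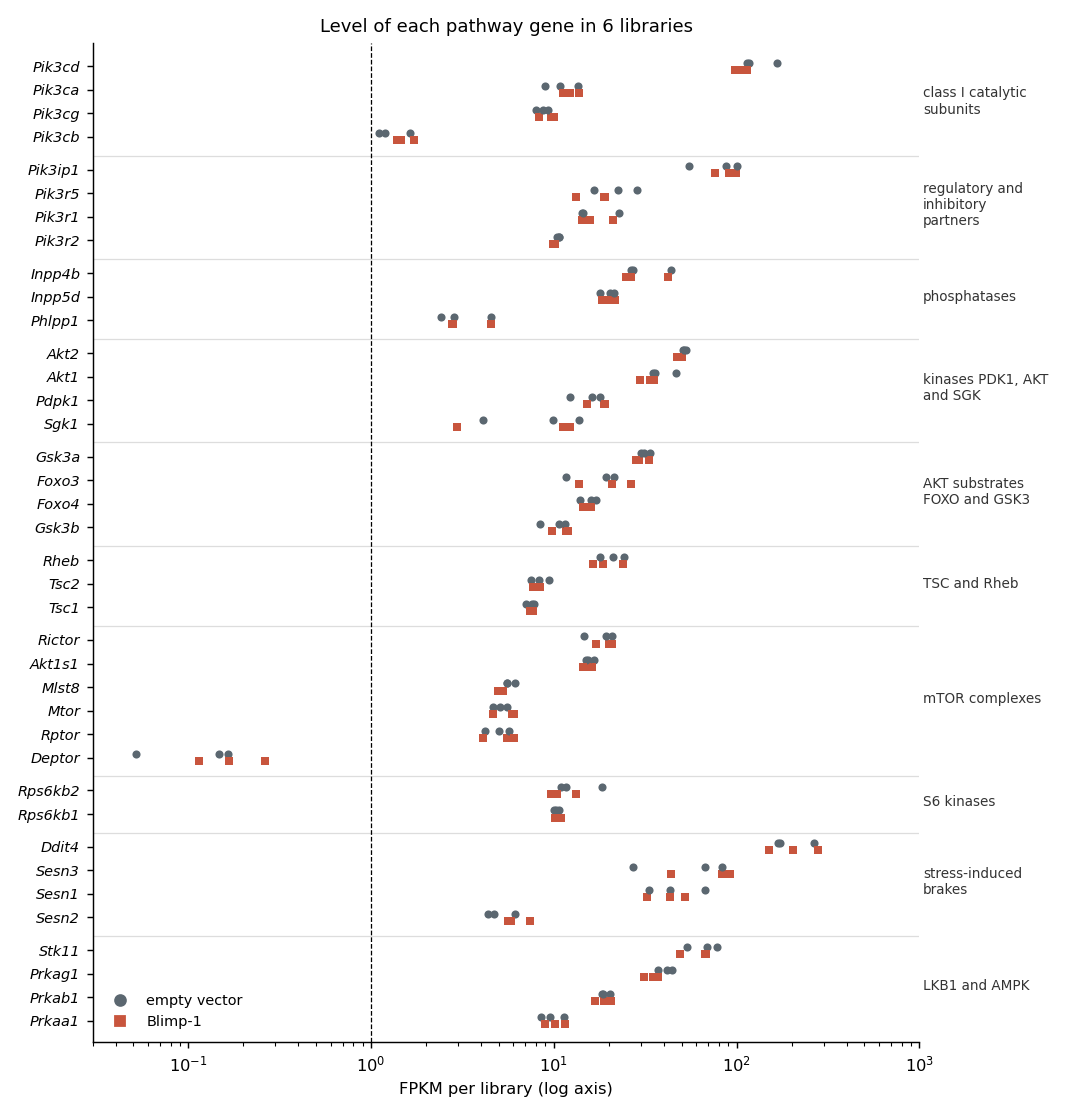
FPKM of each of the 38 genes in each of the 6 libraries on a log axis, grouped by role, with circles for empty vector, squares for Blimp-1 and a dashed line at the 1 FPKM filter. Symbols of both vectors lie close together for nearly every gene, and only Deptor lies left of the dashed line.

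No gene of the route passed the test over all genes. In the limma fit on log2(FPKM + 1) without a pairing term, 0 of 37 were called at adjusted p under 0.05 and 0 at unadjusted p under 0.05, where 0 of all 10864 genes (0%) and 123 (1.13%) were. All 37 had an adjusted p of 0.998. With the pair as a block, 0 of 37 were called, against 2 of all genes (0.0184%), and the lowest adjusted p of the 37 was 0.148. At unadjusted p under 0.05 in the blocked fit there were 9 of 37 genes (24.3%), against 20.5% of all genes: 4 higher (10.8%, background 9.78%) and 5 lower (13.5%, background 10.7%), shares near those of all genes.

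The median log2 difference of the 37 genes, Blimp-1 minus empty vector, was 0.00, with a range of -0.37 to 0.37. Over all genes tested it was -0.01, with a range of -2.38 to 2.26. Of all genes, 183 (1.68%) differed by more than 0.5 on this scale and none of the 37 did. Without empty vector replicate 3 the median of the 37 was -0.04. An absolute difference had a median of 0.10 among them and 0.11 among all genes.

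Agreement of direction across pairs was counted beside that of all genes. The difference had 1 sign in all 3 pairs for 10 genes higher with Blimp-1 (27%, against 22.8% of all genes) and 13 lower (35.1%, against 22.8%). Under upper-quartile scaling these counts were 11 higher (29.7%) and 9 lower (24.3%), and the background 27.1% and 19.1%. A further count took libraries without their pairing: 5 genes were lower with no overlap between vectors (13.5%, against 2.34% of all genes), namely Pik3cd, Pik3r2, Akt2, Mlst8 and Prkag1, and 0 were higher with no overlap (background 2.29%). Upper-quartile scaling left Pik3cd, Mlst8 and Prkag1, a count of 3, against 1.93% of all genes. Quantile normalization also left 3, Pik3r2, Mlst8 and Prkag1, against 2.26%. With only the highest transcript of each gene there were 4, Pik3r2, Inpp5d, Akt1 and Prkag1, against 2.41%. With 1 library or pair left out the count was 5 to 8 (13.5% to 21.6%), but the share of all genes then rose to between 3.52% and 12.9%. With all 6 libraries, the test over all genes called none of the genes so counted.

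**Figure D2:**
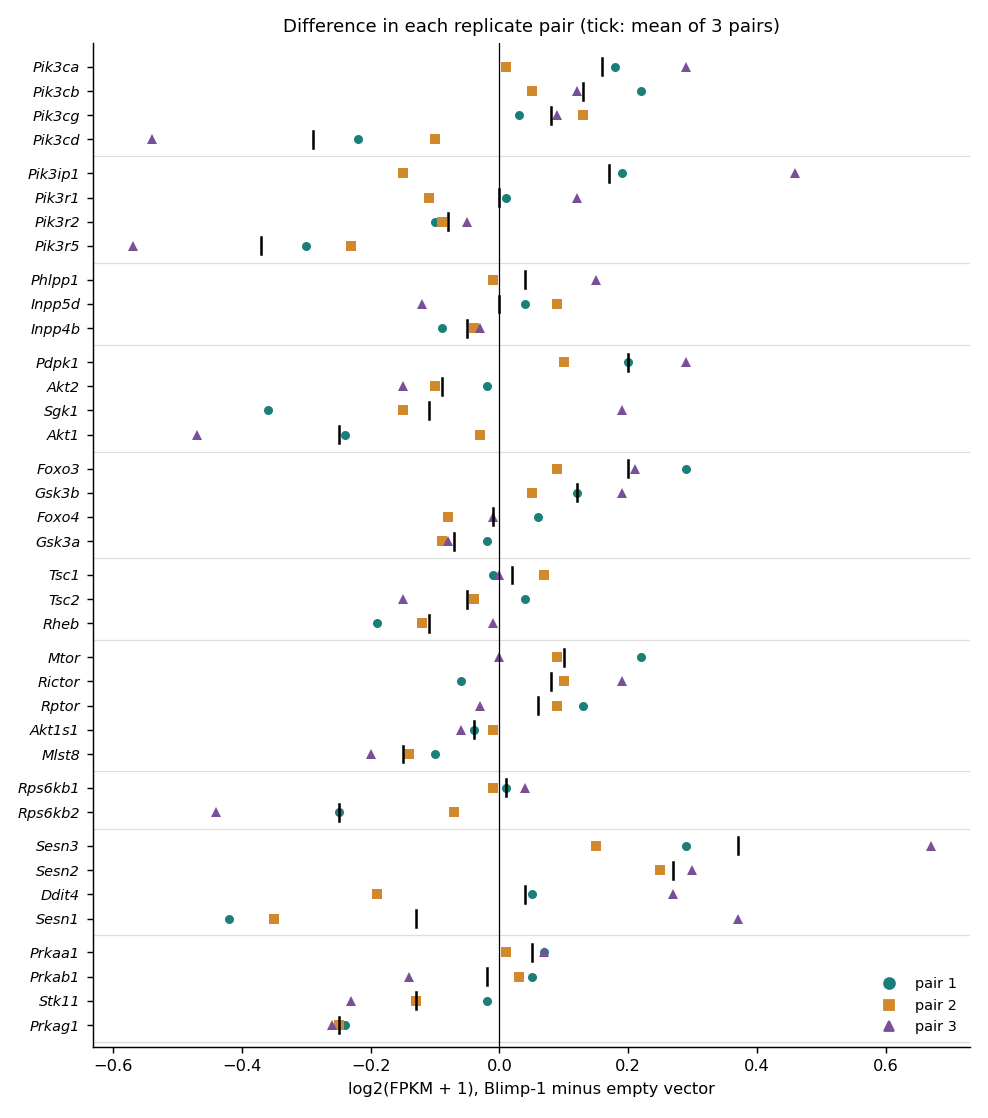
Difference in log2(FPKM + 1), Blimp-1 minus empty vector, in each replicate pair for the 37 tested genes by role, with a tick at the mean of the 3 pairs. Prkag1 and Sesn2 have their 3 symbols nearly on top of each other, while Sesn1 and Sgk1 have pairs on both sides of 0.

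Among catalytic subunits, Pik3cd was far more abundant than its relatives. It read 114, 117 and 166 FPKM in empty vector replicates 1, 2 and 3 and 98.2, 109 and 114 FPKM in the Blimp-1 replicates, listed throughout in that order. The vectors did not overlap, although empty vector replicate 1 and Blimp-1 replicate 3 both round to 114 FPKM, and the highest library was empty vector replicate 3. The means were 132 ± 29.3 and 107 ± 7.97 FPKM (SD, n = 3). Its log2 difference was -0.29 (SE 0.17 without the block and 0.10 with it), with a blocked adjusted p of 0.201 in limma, and -0.11 without empty vector replicate 3. The ubiquitous subunits Pik3ca (8.96 to 13.7 FPKM) and Pik3cb (1.11 to 1.72 FPKM), and Pik3cg (8.03 to 9.97 FPKM), which works with G protein-coupled receptors, were higher with Blimp-1 in 3 of 3 pairs. Their log2 differences were 0.16, 0.13 and 0.08, or 0.03, 0.10 and 0.13 without empty vector replicate 3, and the vectors overlapped for each.

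Partners of the catalytic subunits differed in direction. Pik3r5, which encodes p101, the partner of the Pik3cg product, read 16.5, 22.5 and 28.4 FPKM with empty vector and 13.2, 19 and 18.8 FPKM with Blimp-1. Every pair was lower with Blimp-1, by -0.30, -0.23 and -0.57, although the vectors overlapped. The mean log2 difference of -0.37 was the lowest of the 37 genes (SE 0.23 without the block and 0.09 with it), with a blocked adjusted p of 0.148 in limma and a value of -0.19 without empty vector replicate 3. Pik3r2, the p85-beta subunit, read 10.7, 10.7 and 10.4 FPKM against 9.93, 9.98 and 10.1 FPKM. That is no overlap on a very small scale, a log2 difference of -0.08. Pik3ip1, a membrane inhibitor of PI3K that is abundant in resting T cells, read 87.4, 101 and 54.8 FPKM against 99.7, 90.7 and 75.9 FPKM. Its pairs differed in sign, and the log2 difference of 0.17 was -0.09 without empty vector replicate 3. Pik3r1, the main regulatory subunit, had a log2 difference of 0.00 and levels of 14.2 to 22.7 FPKM.

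The lipid phosphatases SHIP1 (Inpp5d) and Inpp4b, which consume PI3K products, and the AKT phosphatase Phlpp1 differed least between vectors. Inpp4b read 26.4, 43.7 and 27 FPKM with empty vector and 24.7, 42.4 and 26.5 FPKM with Blimp-1. Both libraries of pair 2 stood well above the rest, and the log2 difference was -0.05, or -0.16 without empty vector replicate 3. Inpp5d (17.9 to 21.6 FPKM) and Phlpp1 (2.4 to 4.56 FPKM) had log2 differences of 0.00 and 0.04.

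Of the kinases that PIP3 recruits, Akt2 was the most abundant. It read 51, 51.5 and 52.7 FPKM with empty vector and 50.5, 47.9 and 47.4 FPKM with Blimp-1. The vectors did not overlap, by a margin of less than 1 FPKM, and the log2 difference was -0.09. Akt1 read 35, 35.8 and 46.9 FPKM against 29.5, 35.2 and 33.4 FPKM. It was lower with Blimp-1 in 3 of 3 pairs, with a single high library, empty vector replicate 3, and its log2 difference of -0.25, or -0.11 without that library, had a blocked adjusted p of 0.240 in limma. Pdpk1, the kinase that activates AKT, read 16.2, 17.8 and 12.2 FPKM against 18.8, 19.1 and 15.2 FPKM. Each pair was higher with Blimp-1, the vectors overlapped, and the log2 difference of 0.20, or 0.05 without empty vector replicate 3, had a blocked adjusted p of 0.213. Sgk1, a kinase related to AKT and activated by mTORC2, had the widest spread between replicates. Its values were 4.1, 13.7 and 9.85 FPKM against 2.97, 12.3 and 11.3 FPKM, low in pair 1 under both vectors, and the log2 difference was -0.11, which rounds to 0.00 without empty vector replicate 3.

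AKT's substrates were as mixed. Foxo3, a transcription factor that AKT keeps out of the nucleus, read 21.4, 19.3 and 11.7 FPKM with empty vector and 26.4, 20.7 and 13.7 FPKM with Blimp-1. Both libraries of pair 3 were low, each pair was higher with Blimp-1, and the log2 difference was 0.20, or -0.05 without empty vector replicate 3. Its blocked adjusted p was 0.211 in limma. Gsk3a, 1 of the glycogen synthase kinases that AKT inhibits, read 33.6, 31.2 and 30 FPKM against 33.1, 29.2 and 28.3 FPKM. Those sets overlapped, with a log2 difference of -0.07. Its paralog Gsk3b (8.42 to 11.9 FPKM) was higher in 3 of 3 pairs, by 0.12 on average, a value that rounds to 0.00 without empty vector replicate 3. Foxo4 (13.9 to 17 FPKM) had a log2 difference of -0.01.

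The TSC genes, whose products form the GTPase-activating complex acting on Rheb, differed little between vectors. Tsc1 (7.01 to 7.76 FPKM) and Tsc2 (7.46 to 9.41 FPKM) had log2 differences of 0.02 and -0.05. Rheb, the GTPase that activates mTORC1, read 21.2, 17.9 and 24.1 FPKM against 18.5, 16.4 and 23.9 FPKM. It was lower with Blimp-1 in 3 of 3 pairs with wide overlap, and the log2 difference was -0.11, or -0.01 without empty vector replicate 3. Within the mTOR complexes, the kinase Mtor (4.62 to 6.04 FPKM), the mTORC1 scaffold Rptor (4.11 to 6.09 FPKM) and the inhibitory subunit Akt1s1 (14.4 to 16.6 FPKM) had log2 differences of 0.10, 0.06 and -0.04. Rictor, the mTORC2 scaffold, read 20.8, 19.3 and 14.7 FPKM against 20, 20.7 and 17 FPKM, which overlapped. Mlst8, a subunit of both complexes, read 5.57, 5.57 and 6.17 FPKM against 5.12, 4.97 and 5.25 FPKM. All 3 Blimp-1 libraries lay below all 3 empty vector libraries, with means of 5.77 ± 0.349 and 5.11 ± 0.140 FPKM (SD, n = 3). Its log2 difference of -0.15 ranged from -0.17 to -0.10 over the 19 alternatives tried and was called in none.

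S6 kinases phosphorylate the ribosomal protein S6 downstream of mTORC1. Rps6kb2 read 11.6, 10.9 and 18.4 FPKM with empty vector and 9.63, 10.4 and 13.3 FPKM with Blimp-1. Its log2 difference of -0.25 was -0.03 without empty vector replicate 3, the highest library, and its blocked adjusted p was 0.211. Rps6kb1 (10 to 11 FPKM) had a log2 difference of 0.01.

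The highest mean differences among the 37 genes were those of Sesn3 and Sesn2, though Sesn3 changed sign without 1 library. Sestrins restrain mTORC1 by way of GATOR2 and AMPK, and Sesn2 is also a leucine sensor. Sesn3 read 67.6, 82.9 and 27 FPKM with empty vector and 82.9, 92.4 and 43.7 FPKM with Blimp-1. Pair 3 was low under both vectors, the vectors overlapped, and the pairs differed by 0.29, 0.15 and 0.67. The mean log2 difference of 0.37 (SE 0.45 without the block and 0.11 with it) had a blocked adjusted p of 0.177 in limma and became -0.11 without empty vector replicate 3.

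Sesn2, at a much lower level, read 6.1, 4.73 and 4.34 FPKM against 7.42, 5.81 and 5.59 FPKM. Its pairs differed by 0.25, 0.25 and 0.30. The means were 5.06 ± 0.926 and 6.27 ± 0.997 FPKM (SD, n = 3), the log2 difference was 0.27 and the blocked adjusted p was 0.152 in limma. Over the 19 alternatives it lay between 0.16 and 0.39, and without empty vector replicate 3 it was 0.18. Sesn1, singled out after its values were seen, was lower with Blimp-1 in pairs 1 and 2 and higher in pair 3. It read 43.4, 67.1 and 33.3 FPKM against 32.3, 52.5 and 43.3 FPKM, so pairs 1 and 2 differed by -0.42 and -0.35 and pair 3 by 0.37. Ddit4, which activates the TSC complex under hypoxia and glucocorticoid, was the most abundant gene of the route at 267, 173 and 169 FPKM against 278, 151 and 204 FPKM. Pair 1 was high under both vectors and the log2 difference was 0.04.

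LKB1 (Stk11) activates AMPK, an energy sensor of 3 kinds of subunit that restrains mTORC1. Prkag1, the gamma subunit that binds adenine nucleotides, read 37, 41.8 and 44.3 FPKM with empty vector and 31.2, 34.9 and 37 FPKM with Blimp-1. The vectors did not overlap, but the highest Blimp-1 library and the lowest empty vector library both round to 37.0 FPKM. The means, 41 ± 3.68 and 34.3 ± 2.92 FPKM (SD, n = 3), stood in a ratio of 0.837. Its pairs differed by -0.24, -0.25 and -0.26, and the log2 difference was -0.25 (SE 0.13 without the block and 0.06 with it). The blocked adjusted p was 0.152 in limma, and over the 19 alternatives the difference lay between -0.32 and -0.18. Stk11 read 68.9, 53.6 and 78.5 FPKM against 67.9, 48.8 and 67 FPKM, lower in 3 of 3 pairs with overlap and a log2 difference of -0.13, which rounds to 0.00 without empty vector replicate 3. The catalytic subunit Prkaa1 (8.49 to 11.5 FPKM) and the scaffold subunit Prkab1 (16.8 to 20.6 FPKM) had log2 differences of 0.05 and -0.02.

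**Figure D3:**
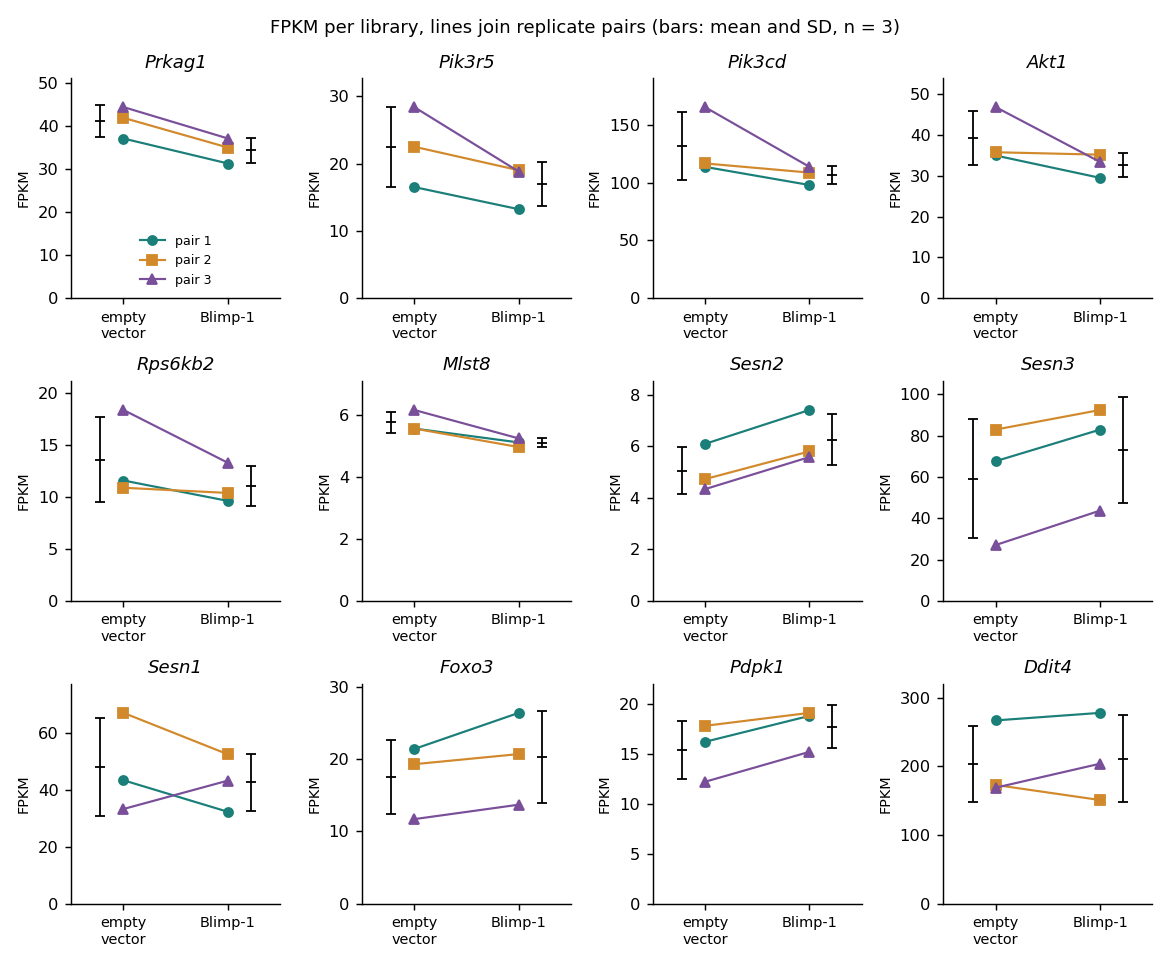
FPKM of 12 genes in the 6 libraries, with lines joining replicate pairs and side bars giving each vector's mean and SD (n = 3), axes starting at 0. The lines run parallel for Prkag1 and Sesn2, the line of pair 3 is the steepest for Pik3cd and Akt1, and the lines of Sesn1 cross.

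The spread between replicate pairs was set beside the difference between vectors. For 33 of the 37 genes (89.2%) the range of the 3 pair means exceeded the difference between vectors, as for 92.7% of all genes tested. The median range was 0.35 on the log2 scale, against a median absolute difference of 0.10. These are unlike measures, as a range of 3 means tends to exceed a single difference even without a replicate effect. The count alone therefore does not show that replicates differed more than vectors. Only Pik3r2, Akt2, Mlst8 and Prkag1 had the wider difference between vectors. The widest ranges belonged to Sgk1 (1.63), Sesn3 (1.32), Foxo3 (0.86), Ddit4 (0.75) and Inpp4b (0.73). Empty vector replicate 3 was the highest of the 6 libraries for 10 genes (27%, against 29.1% of all genes), among them Pik3cd, Akt1 and Stk11. It was the lowest for 11 (29.7%, against 28.1%), among them Sesn3, Foxo3, Rictor and Pdpk1.

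**Figure D4:**
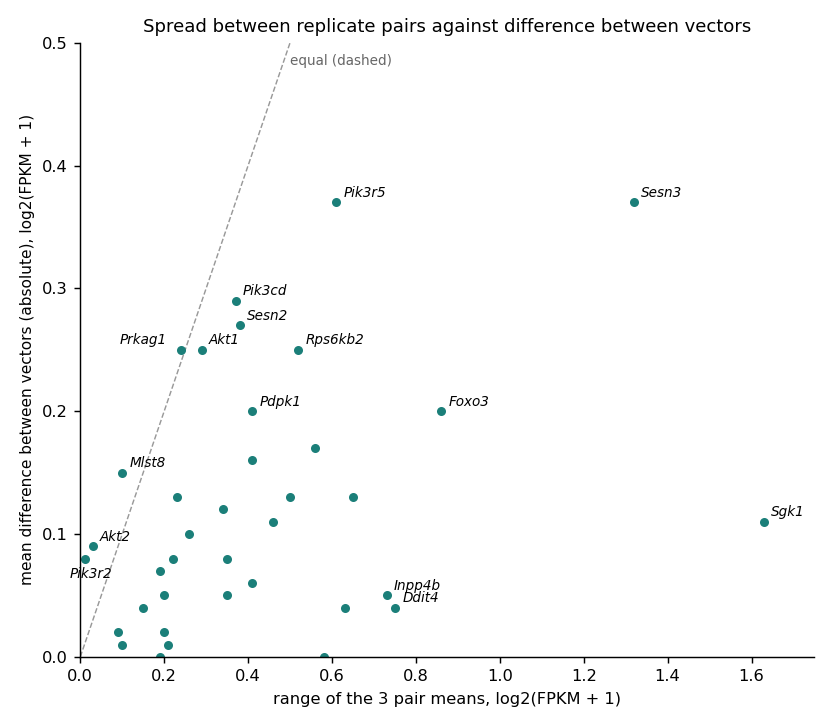
Absolute difference between vectors against the range of the 3 pair means for the 37 tested genes, both in log2(FPKM + 1), with a dashed line where they are equal. Only Pik3r2, Akt2, Mlst8 and Prkag1 lie left of the line, and Sgk1 and Sesn3 lie farthest right.

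Calls within the route depended on pair 3. In the blocked fit without it, 3 genes were lower at adjusted p under 0.05 by limma (8.11% of the 37, against 6.21% of all genes) and 1 was higher (2.7%, against 5.02%). These were Sesn1, with a log2 difference of -0.38 and an adjusted p of 0.00182, Pik3r5 (-0.27, 0.026), Prkag1 (-0.25, 0.0307) and Sesn3 (0.22, 0.0439). This fit holds 4 libraries with 1 residual degree of freedom, and 18.38 prior degrees of freedom lent from all genes. Without pair 1 none of the 37 was called, where 0.0092% of all genes were higher and 0.0184% lower. Without pair 2 none was called either, where 0.0644% and 0.193% were. The sign of Sesn1 in pair 3 is opposite to that in both other pairs.

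Several genes were listed as more than 1 RefSeq transcript, 14 of the 38 in all. Single reads of 50 bases assign such forms weakly. Lengths given here are those of matched GENCODE models, not of the RefSeq entries themselves, and more than 1 entry can share a model. The 3132-base model of Pik3cd below is nearly all coding sequence (3129 bases). Pik3cd was divided mainly between a 3132-base and a 4765-base transcript. The shorter one read 45.5, 40 and 88.4 FPKM with empty vector and 30.4, 36.1 and 55.2 FPKM with Blimp-1, and held most of the excess of empty vector replicate 3. The longer one read 53.7, 45.2 and 56.4 FPKM against 48.9, 45 and 42.1 FPKM. The transcript of Pik3r1 that encodes p85-alpha, 724 residues long, read 12.8, 17.8 and 7.97 FPKM against 14, 19.1 and 9.03 FPKM. It was higher in 3 of 3 pairs, while the summed gene was not. A shorter form of 454 residues read 1.42, 4.95 and 6.5 FPKM against 0.252, 1.93 and 6.73 FPKM. Sesn1 was nearly all a 2600-base transcript of 492 residues, at 88.7% to 96.3% of the gene. For Akt2, the 2923-base transcript read 32.4, 34.6 and 39.5 FPKM against 28.5, 32.6 and 34.1 FPKM, so the vectors overlapped in it while the gene's sum had no overlap.

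**Figure D5:**
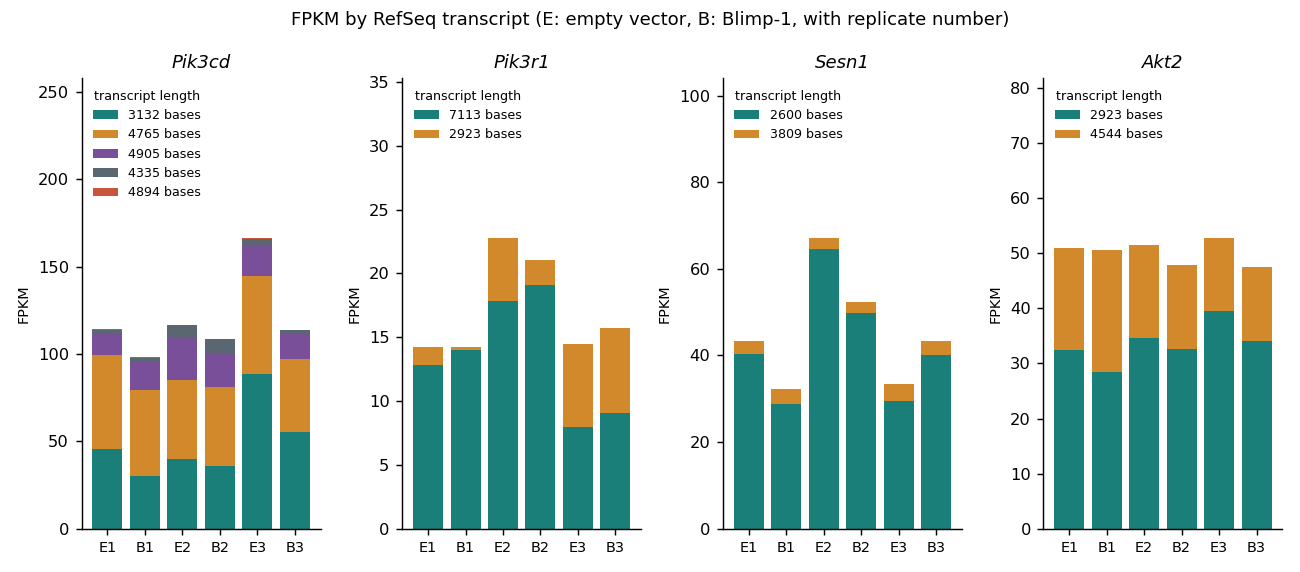
FPKM of each RefSeq transcript, stacked by library, for Pik3cd, Pik3r1, Sesn1 and Akt2, with E and B marking empty vector and Blimp-1 and the replicate number following. Lengths are those of matched GENCODE models. The 3132-base Pik3cd transcript is tallest in E3, and the 2923-base Pik3r1 transcript makes up a larger share in E3 and B3 than in the other libraries.

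RefSeq promoter windows, from 250 bases before to 50 after each start in GRCm38.p6, were given for 35 of the 38 genes, in 50 windows. Those of Foxo4, Deptor and Rps6kb2 were not used here. They were searched on both strands for a FOXO core, GTAAACA, and a Blimp-1 core, AGNGAAAG, which do not overlap each other in the matches found. The FOXO letters stood in 4 of the 50 windows (8%), against 3.65% of all 32851 windows, and the Blimp-1 letters in 2 (4%), against 8.63%. The 250 bases before the start of Prkag1, Pik3r5 and Sesn3 are printed because these genes had differences of 1 sign in all 3 pairs and were called without pair 3. None holds either motif.
Prkag1 chr15:98831509-98831758 (minus strand): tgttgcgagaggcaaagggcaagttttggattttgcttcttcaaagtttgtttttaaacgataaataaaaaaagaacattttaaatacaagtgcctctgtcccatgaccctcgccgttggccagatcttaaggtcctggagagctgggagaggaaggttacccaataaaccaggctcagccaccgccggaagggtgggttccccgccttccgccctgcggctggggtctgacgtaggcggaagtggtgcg
Pik3r5 chr11:68431875-68432124 (plus strand): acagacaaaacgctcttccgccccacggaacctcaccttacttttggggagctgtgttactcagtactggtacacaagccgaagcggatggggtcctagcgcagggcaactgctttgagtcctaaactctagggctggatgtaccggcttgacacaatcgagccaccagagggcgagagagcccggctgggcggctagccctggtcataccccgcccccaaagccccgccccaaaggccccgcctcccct
Sesn3 chr9:14276051-14276300 (plus strand): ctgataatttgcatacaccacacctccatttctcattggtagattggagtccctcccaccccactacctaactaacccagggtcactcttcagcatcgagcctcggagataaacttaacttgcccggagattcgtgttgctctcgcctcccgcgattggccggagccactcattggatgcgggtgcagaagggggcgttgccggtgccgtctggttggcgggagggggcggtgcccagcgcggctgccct
The 6 matches follow in 30-base stretches with the matched letters in capitals, FOXO core first and Blimp-1 core last.
Sesn1 chr10:41810585-41810614 (plus strand): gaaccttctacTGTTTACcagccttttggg
Stk11 chr10:80115800-80115829 (plus strand): ggcgcagggcgGTAAACAagatggcggcgg
Pik3cg chr12:32208544-32208573 (minus strand): tttttcctaaaGTAAACAaatgatcctcct
Akt1 chr12:112675027-112675056 (minus strand): atctaccctctTGTTTACactcctggtgaa
Pdpk1 chr17:24150884-24150913 (minus strand): ggattctgggaAGGGAAAGacagtccccct
Sgk1 chr10:21882061-21882090 (plus strand): ttcctgccttgCTTTCTCTttccatttacc
The Sgk1 match lies before the start of a minor transcript, not of the one that carries most of its FPKM, and the Pdpk1 match lies beside the start of a transcript not used here. Likewise, the Pik3cg match lies before the start of a minor transcript. The Sesn1 match lies at a start other than that of the transcript that carries most of its FPKM. No transcript could be assigned to the Akt1 window that holds the letters. Pik3cg, Akt1, Stk11 and Sesn1, which hold the FOXO letters, had log2 differences of 0.08, -0.25, -0.13 and -0.13. Pdpk1 and Sgk1, which hold the Blimp-1 letters, had 0.20 and -0.11. A match is a description of the letters and not a bound site.

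Other genes of the route, in 6 lists, also had no member called over all genes. Among further PI3K and AKT genes, 19 of 21 were tested, with a median log2 difference of 0.08 (all genes -0.01). Of these 19, 16 were higher and 3 lower, where 5210 and 5654 of all 10864 genes were. In the blocked fit 4 of the 19 were higher and 1 lower at unadjusted p under 0.05, where 9.78% and 10.7% of all genes were. Inppl1, the lipid phosphatase SHIP2, read 6.58, 6 and 5.73 FPKM with empty vector and 9.3, 7.31 and 7.96 FPKM with Blimp-1. Its vectors did not overlap, and its log2 difference of 0.37 had a blocked adjusted p of 0.141. Cblb, a ubiquitin ligase that restrains CD28 signalling, had a log2 difference of 0.36, or 0.15 without empty vector replicate 3, and Sgk3, a kinase related to AKT, -0.34.

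Of 11 other mTOR complex genes and regulators, 9 were tested, with a median of -0.11, or -0.03 without empty vector replicate 3. With the block, 1 was higher and 2 lower at unadjusted p under 0.05, where 9.78% and 10.7% of all genes were. The same background holds for the counts of the lists below. Ulk1, the autophagy kinase that mTORC1 inhibits, was at 0.31 (0.20 without that library), Tti2, which helps assemble mTOR, at -0.21, and Mapkap1, the mTORC2 subunit SIN1, at -0.19. Of 24 amino acid sensing genes, 22 were tested, with a median of -0.02 and counts of 1 higher and 4 lower. Lamtor2 and Lamtor3, which anchor mTORC1 at the lysosome, were at -0.23 and -0.22, and Flcn and its partner Fnip1 at 0.17 and 0.15. Without empty vector replicate 3, Lamtor2 was at -0.03 and Flcn at 0.05. All 12 mTORC1 effectors in translation and growth were tested, with a median of -0.02 and counts of 2 higher and 0 lower. The higher ones were Eif4b, an initiation factor, at 0.23, and Eif4ebp2, a repressor of cap-dependent translation, at 0.25. Maf1 and Eif4ebp1 were at -0.13 and -0.15. Without empty vector replicate 3, Eif4b was at 0.10, Eif4ebp2 at 0.04, Maf1 at -0.08 and Eif4ebp1 at -0.06.

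The 14 FOXO target genes had a median of 0.08, or 0.00 without empty vector replicate 3. By the same count 3 were higher and 2 lower (all genes 9.78% and 10.7%). Txnip, an inhibitor of glucose uptake, read 350, 432 and 280 FPKM with empty vector and 493, 527 and 374 FPKM with Blimp-1. Each pair was higher and the vectors overlapped. Its log2 difference of 0.40 had a blocked adjusted p of 0.141, and 0.24 was left without empty vector replicate 3. Klf2, a factor that keeps T cells circulating, read 63.3, 106 and 91.1 FPKM against 39.9, 70.7 and 76.3 FPKM. All 3 pairs were lower, and the log2 difference was -0.49, with a blocked adjusted p of 0.141. Trib1 was at 0.39 and Ccr7, the lymph node homing receptor, at -0.16 (-0.26 without empty vector replicate 3). Of 11 further LKB1 and AMPK genes, 9 were tested, with a median of -0.01 and counts of 1 higher and 2 lower. Cab39, which holds LKB1 active, was at 0.21, its complex partner Strada at -0.22 and the AMPK gamma subunit Prkag2 at -0.26. Without empty vector replicate 3 these were 0.11, -0.16 and -0.17. Prkag2 was lower in 3 of 3 pairs, as Prkag1 was.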

How the data were processed

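The authors deposited 1 table of FPKM per RefSeq transcript for 6 libraries, which were single reads of 50 cycles per the labels. CASAVA 1.8.2, Cufflinks 2.2, Partek 6.6 and the build mm9 are listed in the submitters' processing notes without roles. Neither the aligner nor the strand setting is given in the sources used here. The 29868 transcripts were summed into 22624 genes, named from RefSeq by accession (29310), by symbol (374) or by their own symbol (166). The 18 that name no gene, 0.0121% to 0.044% of a library's summed FPKM, were left out. Members were taken from the genes so named. For 37 of them the deposited symbol picked the same transcripts, and Rheb, whose deposited symbol differs, was matched by accession.

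A gene was tested if 3 or more of the 6 libraries had 1 FPKM or above, which left 10864. Tests used limma 3.58.1 (R 4.3.3) on log2(FPKM + 1), trend on, with vector as the sole factor, and adjusted p-values by Benjamini-Hochberg, called under 0.05. This scale understates the change of low genes. The script was tested on simulated data with equal noise in all libraries, none of them outlying, and with changes larger than those of the members. That test therefore does not show how small differences fare. An exact permutation test of 3 libraries against 3 cannot go below p = 0.1, and of 3 pairs not below 0.25, so none was used. P-values weigh the difference between vectors against the spread of these libraries within a vector, or of the pair differences with the block. That spread is moderated by a prior from all genes.

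Same-numbered libraries correlated at 0.70 to 0.81 in their deviations from the group means and others at -0.54 to -0.25, so the numbers were taken to pair them, and blocked values are given for the overall counts and for the members with unadjusted p under 0.05 in the blocked fit. Depth was estimated from the FPKM of 1 read. Members, gene lists, motifs and named genes were chosen with earlier results of these data known. Values are given per library for members with no overlap between vectors, with 1 sign in all pairs and unadjusted p under 0.05 with the block, at the extremes of the list, or the most abundant of their role. From each other list up to 2 genes per direction are named by the smallest blocked p. Alternatives covered the block, pseudocount, filter, scaling, transcript choice, trend, robust fitting and each library or pair left out.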

Additional observations from a re-analysis of the deposited data

How the results depend on the processing

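Prdm1 had a log2 difference of 2.26 with an adjusted p of 0.0565 in the fit without pairing. With the replicate block the difference was again 2.26 and the adjusted p 0.00488, and the fit called 1 gene higher and 1 lower. Leave-one-out fits without pairing gave 2.11 to 2.42, and blocked fits without pair 1, 2 or 3 gave 2.16, 2.29 and 2.32. Without empty vector replicate 2 the fit without pairing called 1 gene higher, Prdm1 at 2.42. Leaving out pairs moved the blocked counts to between 1 and 545 higher and between 2 and 675 lower. The high values came without pair 3, and the 7 higher and 21 lower without pair 2. Blocked counts were 0 higher and 0 lower with no filter, and 2 lower at a pseudocount of 0.01, both alternatives chosen after seeing the data. The cause was not tested.

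The median log2 difference of the 37 genes was 0.00, 0.03 after upper-quartile scaling, and -0.04 to 0.05 with libraries left out. Genes higher without overlap numbered 0, and 0 to 3 with libraries or pairs left out, where 3.23% to 13.4% of all genes did so against 2.29% with all libraries. Those lower numbered 5, 3 under upper-quartile scaling and 3 under quantile normalization, and 5 to 8 with libraries or pairs left out, where the share of all genes was 3.52% to 12.9% against 2.34%. These alternatives for the counts were also chosen after seeing the data.

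Signs turned with some library left out for 8 of the 19 genes refitted under each alternative, none of which was called with all libraries. The ranges over single libraries left out were -0.18 to 0.26 for Ddit4 (-0.07 in the blocked fit without pair 3), -0.05 to 0.44 for Foxo3, -0.29 to 0.18 for Inpp4b, -0.09 to 0.34 for Pik3ip1, -0.25 to 0.01 for Rheb, -0.06 to 0.17 for Rictor, -0.11 to 0.70 for Sesn3 and -0.28 to 0.03 for Stk11. No pseudocount, filter or scaling turned a sign among these 19. The block changed no call among the 37 genes.

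Depth was 16.9 to 45.6 M reads, and the lowest value of a tested gene of the route was 1.11 FPKM. Reads per gene are fewest for Pik3cb and Deptor.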
